A study of Mus musculus with 2 samples.

Results

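The genes described here encode p300 (*Ep300*), CBP (*Crebbp*) and another 7 histone acetyltransferases, *Kat2a*, *Kat2b*, *Kat5*, *Kat6a*, *Kat6b*, *Kat7* and *Kat8*. A Myb peak was counted at one of these 9 genes when its summit lay in the gene body or within 20 kb of it in the GENCODE vM21 annotation. By this rule 39 of the 25793 peaks in the Myb ChIP-Seq list belonged to the 9 genes, 9 of them at *Ep300* and *Crebbp* and 30 at the others. Chromatin of WT mouse bone marrow was used after depletion of cells with lineage markers, and these Lin- cells are mostly hematopoietic stem and progenitor cells, with a stated purity above 80%. It was precipitated once with an antibody to Myb and once with rabbit IgG, which served as the background in peak calling. There was no replicate and no knockout control, so each value describes this library, and intervals cover counting error only.

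Histone acetyltransferases place acetyl groups on lysines of histone tails, which loosens chromatin and recruits proteins with bromodomains. p300 and CBP are large paralogous coactivators that bind many transcription factors. Their KIX domain binds the transactivation domain of Myb, so both are known partners of the factor whose binding was mapped here. GCN5 (*Kat2a*) and PCAF (*Kat2b*) are the catalytic subunits of the SAGA and ATAC complexes. TIP60 (*Kat5*), MOZ (*Kat6a*), MORF (*Kat6b*), HBO1 (*Kat7*) and MOF (*Kat8*) form the MYST family, and MOZ is needed for hematopoietic stem cells and is rearranged in acute myeloid leukemia. The question asked here was where Myb was bound at the genes of its own coactivators, and how *Ep300* and *Crebbp* stood beside the other acetyltransferase genes.

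The sequence under the summits is shown for the peaks on which the results turn, from the GRCm38 (mm10) reference, 5′ to 3′ on the strand of the gene. The Myb hexamer searched was CAACGG or CAACTG on either strand, or either of these with T as the first base, and it lay within 50 bp of 3 of the 39 summits. CAACTG is also a form of the E-box CANNTG. These 3 windows of 101 bases are shown because they were the only ones at the 9 genes with a hexamer of these forms. Capitals mark the hexamer. Looser forms of the Myb site, CAACNG and TAACNG, were at 20.5% of the 39 summits, with no share over all peaks to set beside it. The windows with a hexamer lie at chr16:4169670-4169770 in intron 2 of *Crebbp* and at chr17:53566309-53566409 before the start of *Kat2b*. The *Kat6b* window lies at chr14:21600844-21600944 in intron 2.
Crebbp intron 2: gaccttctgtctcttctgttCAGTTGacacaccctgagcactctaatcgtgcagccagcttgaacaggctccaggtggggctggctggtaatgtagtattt
Kat2b promoter: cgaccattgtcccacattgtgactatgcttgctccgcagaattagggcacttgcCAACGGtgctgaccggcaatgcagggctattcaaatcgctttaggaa
Kat6b intron 2: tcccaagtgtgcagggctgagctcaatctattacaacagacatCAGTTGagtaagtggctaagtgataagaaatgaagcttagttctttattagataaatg

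The next windows belong to the promoters of *Ep300*, *Crebbp*, *Kat7* and *Kat5* and to the strongest peak at any of the 9 genes, in *Kat2b*. None of them held a Myb hexamer of the searched forms. The *Kat2b* window held CGGTTA, a match to the looser TAACNG on the other strand. Capitals mark motif matches on either strand. For ETS factors the letters searched were CCGGAA, and for SP/KLF factors they were GGGCGG. The letters of the NFY box were CCAAT, and those of GATA factors AGATAA. For RUNX factors TGTGGT was searched, and for C/EBP factors TTGCNNAA. For *Ep300*, whose summit lay in the untranslated part of exon 1, the 150 bases before the annotated start of the gene are shown instead, at chr15:81585201-81585350. They lie inside its promoter peak, were 74.0% G and C, and held an ETS match, an NFY match and SP/KLF matches. The window at the stronger *Crebbp* promoter summit is at chr16:4212301-4212401 and held an NFY match. The *Kat7* window, at chr11:95310466-95310566, held a C/EBP match that overlapped an NFY match. The *Kat5* window, at chr19:5609906-5610006, held overlapping SP/KLF matches and a GATA match, and the *Kat2b* window, at chr17:53587544-53587644, held an SP/KLF and a RUNX match.
Ep300 upstream: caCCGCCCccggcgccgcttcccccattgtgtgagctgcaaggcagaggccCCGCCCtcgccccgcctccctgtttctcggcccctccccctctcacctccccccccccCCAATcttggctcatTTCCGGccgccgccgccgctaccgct
Crebbp promoter: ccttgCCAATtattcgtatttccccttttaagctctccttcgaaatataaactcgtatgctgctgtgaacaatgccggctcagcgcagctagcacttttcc
Kat7 promoter: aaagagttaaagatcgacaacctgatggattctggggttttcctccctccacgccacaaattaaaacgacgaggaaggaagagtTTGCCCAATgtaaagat
Kat5 promoter: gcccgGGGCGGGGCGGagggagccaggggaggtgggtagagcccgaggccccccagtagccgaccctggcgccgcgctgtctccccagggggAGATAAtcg
Kat2b intron 1: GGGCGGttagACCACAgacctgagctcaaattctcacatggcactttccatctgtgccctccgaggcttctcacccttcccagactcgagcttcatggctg

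Every one of the 9 genes had at least 1 Myb summit by the rule, and 8 had one within 3 kb of a start site of one of their own transcripts. Over all 21938 protein-coding genes, 58.6% had a summit in the gene or within 20 kb, and 39.9% had one within 3 kb of a start site. A summit inside the gene body was found in 7 of the 9 genes, against 35.4% of protein-coding genes. The exceptions inside the body were *Kat2a* and *Kat8*, and the exception at the promoter was *Kat6b*. With only peaks of −log10 q 5 or more, 6 of the 9 genes had a summit by the rule, without *Kat2a*, *Kat6a* and *Kat6b*, and by nearest coding start site 8 had one, without *Kat2a*. The shares of all protein-coding genes above use every peak and the main rule, and none is given for those alternatives. They are not matched for length, and a longer gene has more room for a summit. Gene and flanks together measured 47.2 kb (*Kat5*) to 231 kb (*Kat6b*), with a median of 57.4 kb over all protein-coding genes. Counts at the 9 genes were not tested, because genes are not replicates and the 9 were chosen as a family.

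The number of peaks per gene ran from 2 at *Kat6b* to 6 at *Kat2b* and *Kat8*, with 4 at *Ep300*, 5 at *Crebbp*, 4 at *Kat2a*, 4 at *Kat5*, 3 at *Kat6a* and 5 at *Kat7*. The median protein-coding gene had 1 peak, with quartiles of 0 and 3. The genes differ in length from 7.22 kb (*Kat5*) to 191 kb (*Kat6b*), so the numbers are also given per 100 kb of gene and flanks. On that scale *Ep300* had 3.75 peaks (1.02 to 9.60), *Crebbp* 2.90 (0.940 to 6.76) and *Kat8*, the densest, 11.3 (4.13 to 24.5). *Kat6b*, the sparsest, had 0.866 (0.105 to 3.13). The median over all protein-coding genes was 1.44 per 100 kb, with an upper quartile of 4.16. The exact Poisson intervals of *Ep300* and *Crebbp* overlapped those of all the other members. Within 20 kb a compact gene such as *Kat5* or *Kat8* takes in the promoters of its neighbors, and the densest members were also the shortest, *Kat8*, *Kat5* and *Kat2a*.

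**Figure D1:**
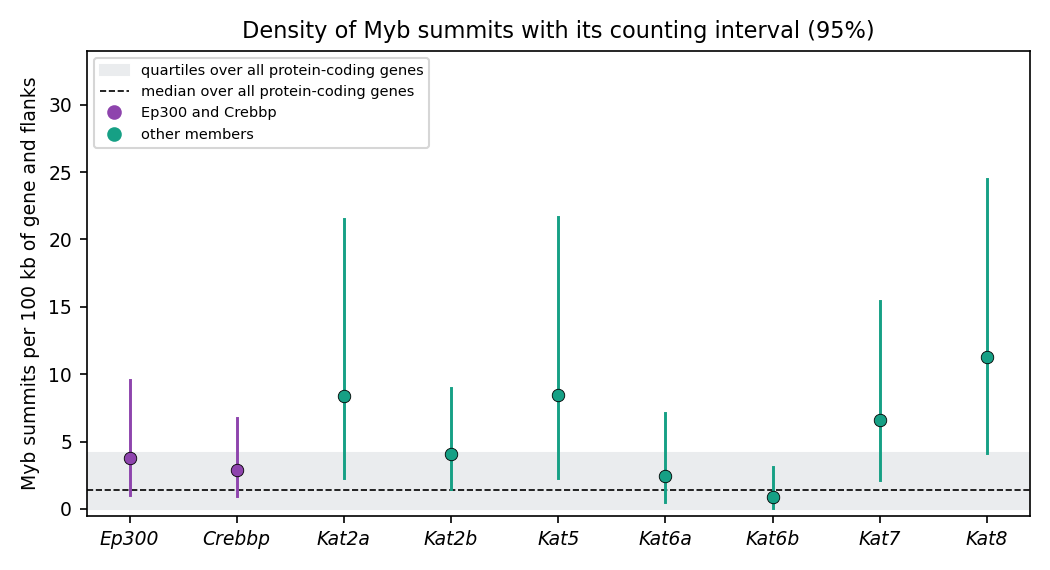
Myb summits per 100 kb of gene and 20 kb flanks for each of the 9 genes, as points with exact Poisson 95% intervals (vertical lines), with the median (dashed line) and quartiles (gray band) of all protein-coding genes. *Kat8*, *Kat5* and *Kat2a* are highest, *Ep300* and *Crebbp* lie between 2.90 and 3.75, and *Kat6b* alone lies below the median of 1.44.

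*Ep300* lies on the forward strand of chromosome 15, from 81585351 to 81652077. Its promoter peak, at 81584592 to 81587131, spanned 2540 bp and had its summit in exon 1, 137 bp from a start site of a coding transcript. The fold enrichment was 7.90 (5.25 to 11.5), from 25 Myb reads (16.2 to 36.9) over an IgG background of 1.56 reads. Here and below, reads are unscaled, and the fold is taken after scaling them by 0.769 and adding 1 to reads and background. The −log10 q-value was 11.7, and 10.1% of all Myb peaks in the list were as strong. A narrower peak at 81577719 to 81578094, 7450 bp upstream of the gene, had a similar fold enrichment of 7.12 (4.69 to 10.4) on 24 reads. It lay outside the promoter window of any coding gene, and its sequence held none of the motifs searched.

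Further along the gene, a weak peak at 81589130 to 81589619 in intron 1 had 3.84-fold enrichment (2.12 to 6.55) on 11 reads. Of the 101 bases at this summit, 58.4% were annotated as repeat. The last peak of *Ep300*, at 81663700 to 81664680, lay 11981 bp beyond the end of the gene with 4.66-fold enrichment (3.19 to 6.61) on 29 reads, the most at *Ep300*, over a background of 4.0. Its summit was 57 bp from a start site of *L3mbtl2*, which encodes a polycomb-related repressor, so by position it is a promoter peak of that gene. By fold enrichment the peaks at and before the promoter of *Ep300* were highest, with intervals that overlapped those of its other peaks. No summit lay in the body beyond intron 1.

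*Crebbp* occupies bases 4081328 to 4213997 of chromosome 16, on the reverse strand. Its promoter held a pair of adjacent peaks, both in intron 1 and 777 bp apart. The one nearer the start, at 4212739 to 4213320, had 2.99-fold enrichment (1.93 to 4.44) on 22 reads over a background of 5.0. The other, at 4212181 to 4212660, had 4.29-fold enrichment (2.75 to 6.43) on 21 reads over a background of 3.0. The read numbers of the pair were nearly equal, and the fold enrichments differed mostly through the IgG background.

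The highest fold enrichments at *Crebbp* were found away from its promoter. A peak at 4169161 to 4170166, in intron 2 and 41099 bp from the nearest start site of *Crebbp*, had 7.26-fold enrichment (4.90 to 10.4) on 27 reads (17.8 to 39.3) with a −log10 q-value of 10.8, and it carried the Myb hexamer shown above. Its IgG background was 2.0 reads, lower than at the promoter, and its intervals of reads and of fold enrichment overlapped those of the stronger promoter peak. It is the only summit at *Ep300* or *Crebbp* with a hexamer. The strongest peak by the rule, at 4076690 to 4078101, had 8.34-fold enrichment (5.95 to 11.4) on 37 reads (26.1 to 51.0), with a −log10 q-value of 16.5. It lay 3627 bp beyond the end of *Crebbp* and 74 bp from a start site of *Trap1*, which encodes a mitochondrial chaperone. A weaker peak at 4074844 to 4075569, 2668 bp from a *Trap1* start site, had 2.86-fold enrichment (1.83 to 4.28).

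**Figure D2:**
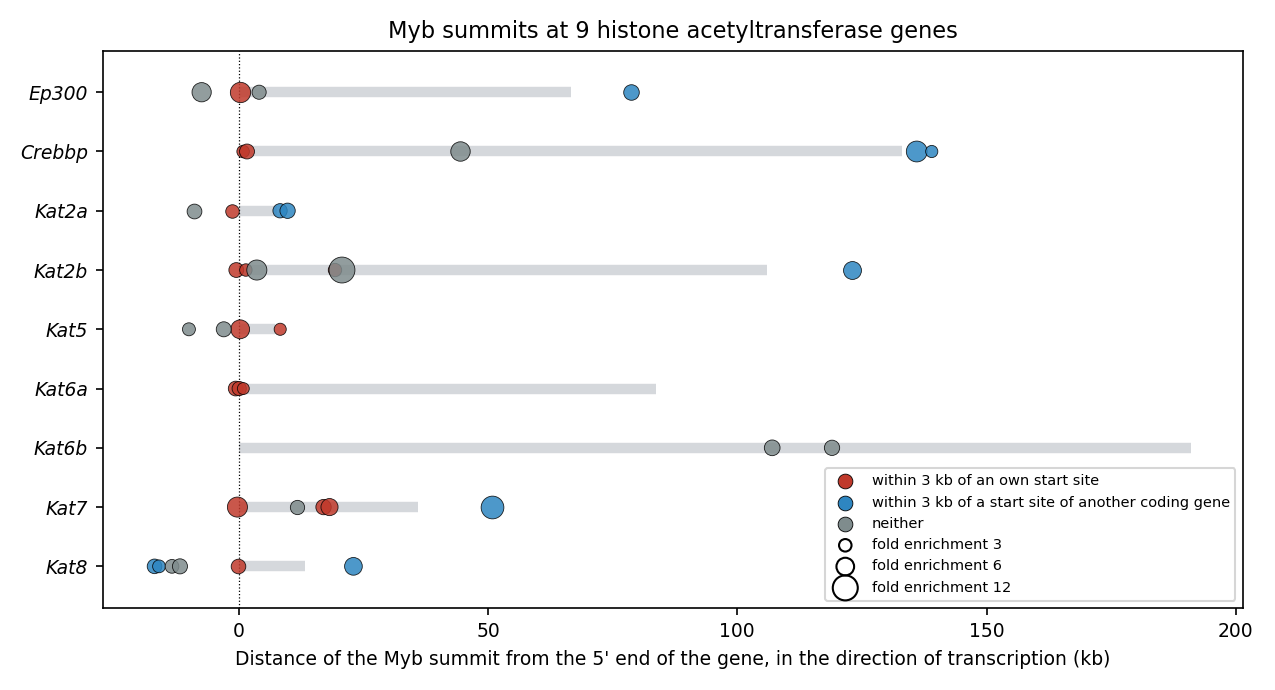
Position of the 39 Myb summits along the 9 genes, as the distance in kb from the 5′ end of the gene in the direction of transcription, with gray bars for the gene bodies, point area for fold enrichment and color for the nearest promoter. Red points lie near the 5′ end of every gene except *Kat6b*, and also within 3 kb of internal start sites of *Kat2b*, *Kat7* and *Kat5*. The largest gray points are the *Kat2b* peaks in intron 1 (12.9-fold and 7.75-fold), the *Crebbp* peak in intron 2 (7.26-fold) and the peak upstream of *Ep300* (7.12-fold).

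At their own promoters the 8 bound genes were ordered by the strongest peak of each. *Ep300* had 7.90-fold enrichment (5.25 to 11.5), *Kat7* 7.73 (5.93 to 9.93) and *Kat5* 6.81 (4.53 to 9.90). These were the only members above 5.25, the median of the strongest promoter peak over the 8758 protein-coding genes that had one. Of those genes, 16.5% had a promoter peak as strong as that of *Ep300*, and 72.0% one as strong as that of *Crebbp*. *Crebbp* had 4.29 (2.75 to 6.43), *Kat2b* 4.21 (2.47 to 6.83), *Kat6a* 4.17 (2.40 to 6.86) and *Kat8* 4.10 (2.60 to 6.19). *Kat2a* was lowest with 3.52 (2.16 to 5.49). Only *Kat7* and *Kat2a* had fold intervals that did not overlap, so neighbors in this order were not distinguished by fold enrichment. In Myb reads *Kat7* stood above its neighbors, with 59 (44.9 to 76.1) against 25 (16.2 to 36.9) at each of *Ep300* and *Kat5*, over a higher IgG background of 5.0 against 1.56 at *Ep300*. The fold intervals of *Ep300* and *Crebbp* overlapped, as did those of *Ep300* and *Kat7*.

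*Kat2b*, on the forward strand of chromosome 17 from 53566861 to 53672720, carried the strongest peak of the family. It lay in intron 1 at 53586826 to 53588081, with a summit 20733 bp into the gene and 3468 bp from the start of an internal coding transcript. The fold enrichment was 12.9 (10.1 to 16.4), from 66 reads (51.0 to 84.0) over a background of 3.0, the −log10 q-value was 38.3, and 1.67% of all Myb peaks were as strong. The fold intervals of 32 of the other 38 peaks lay wholly below that of this peak. A second intronic peak, at 53569569 to 53570849, had 7.75-fold enrichment (5.58 to 10.5) on 39 reads.

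The other peaks of *Kat2b* were weaker. The promoter peak, 502 bp upstream of the gene at 53566221 to 53566628, had 4.21-fold enrichment on 14 reads (7.65 to 23.5) and carried a Myb hexamer that began 4 bp from its summit. Peaks at 53567996 to 53568334 and 53585968 to 53586310 had 2.99-fold and 3.46-fold enrichment, and the latter lay 1993 bp from the internal start site. Beyond the end of the gene a peak with 6.16-fold enrichment lay 172 bp from a start site of *Sgo1*, which encodes the protector of centromeric cohesion. *Kat2a*, the paralog of *Kat2b*, differed in its pattern of peaks, with none inside the gene and 4 around it at 3.52-fold to 4.50-fold. The peak upstream of *Kat2a*, at 100721315 to 100721660, had 4.19-fold enrichment on 17 reads and lay 7589 bp from *Hspb9*, its nearest coding gene. The only promoter peak of *Kat2a*, at chr11:100713554-100714418, lay 1350 bp from the start of *Kat2a* but 35 bp from that of *Hspb9*, a small heat shock protein gene. The peaks beyond its end, at 3.92-fold and 4.50-fold, lay 63 and 674 bp from start sites of *Dhx58*, which encodes an RNA sensor of the RIG-I family.

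Among the MYST genes *Kat7* had the most reads. Its promoter peak, at chr11:95308997-95311113, spanned 2117 bp and rested on 59 reads (44.9 to 76.1) over a background of 5.0. In number of reads it exceeded, with intervals that did not overlap, 34 of the other 38 peaks, although by fold enrichment only 9. The summit lay 270 bp upstream of *Kat7* and 87 bp from the start of the antisense transcript *Gm11520*. *Kat7* also had adjacent peaks in intron 5, 1183 bp apart, with 4.51-fold enrichment on 28 reads and 5.63-fold on 26 reads, both within 3 kb of the start of a non-coding *Kat7* transcript, and a weaker one in intron 4 with 3.92-fold enrichment. The peak with the highest fold enrichment at *Kat7*, 9.93 (6.99 to 13.7) on 34 reads, lay 14736 bp beyond its end and 2006 bp from a start site of *Tac4*, a tachykinin gene.

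The strongest peak of *Kat5* was at its promoter, chr19:5609837-5610614, with 6.81-fold enrichment on 25 reads (16.2 to 36.9). Upstream peaks of *Kat5* had 4.34-fold and 3.23-fold enrichment on 16 and 11 reads. Its last peak, with 2.82-fold enrichment, had its summit 7 bp from a start site of *Rnaseh2c*, which encodes a subunit of ribonuclease H, and 2037 bp from an internal start site of *Kat5*. At *Kat8* the promoter peak, 98 bp upstream of the gene at chr7:127912336-127912927, had 4.10-fold enrichment on 20 reads. Of the other peaks of *Kat8*, one with 4.10-fold enrichment lay 44 bp from *Vkorc1*, the vitamin K epoxide reductase gene. Those at 127898909 to 127899255 and 127900577 to 127901034 had 3.64-fold and 4.37-fold enrichment, with *Vkorc1* and *Bckdk* as the nearest coding genes. The strongest peak near *Kat8*, with 6.02-fold enrichment (4.14 to 8.49), lay 44 bp from a start site of *Prss36*. Another *Kat8* peak, 868 bp from *Vkorc1* with 3.16-fold enrichment on 10 reads, was the only one of the 39 with a q-value above 0.05, against 7.24% of all peaks.

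The paralogs *Kat6a* and *Kat6b* had opposite layouts. At *Kat6a*, on the forward strand of chromosome 8 from 22859535 to 22943259, all 3 peaks lay within 1534 bp around the start, with 4.17-fold, 3.88-fold and 2.73-fold enrichment on 13, 12 and 20 reads. No summit was listed in the remainder of the 83.7 kb of *Kat6a*. At *Kat6b*, on chromosome 14 from 21481434 to 21672478, both peaks lay deep in intron 2, 106732 and 119460 bp from the 5′ end. They had 4.74-fold (2.78 to 7.69) and 4.50-fold (2.63 to 7.28) enrichment, each on 14 reads, and the one farther in carried a Myb hexamer. No summit was listed within 3 kb of any *Kat6b* start site. Binding below the calling threshold cannot be seen in a peak list.

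**Figure D3:**
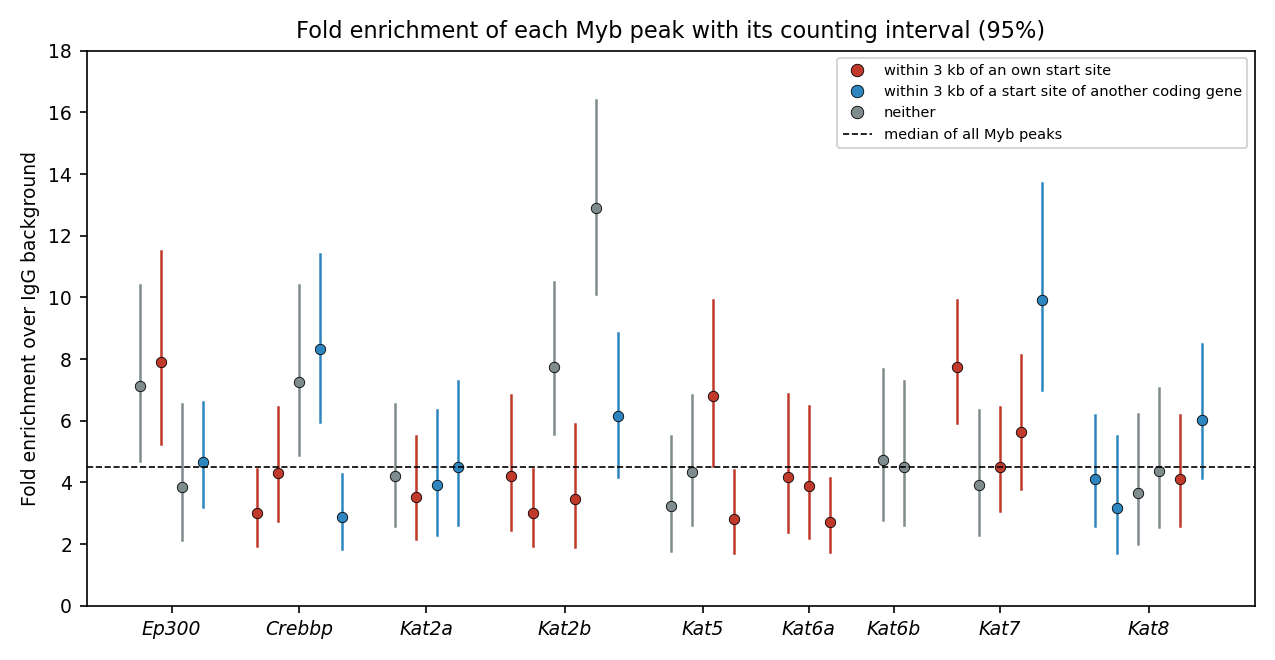
Fold enrichment over the IgG background for each of the 39 peaks, ordered within each gene along the direction of transcription, with 95% counting intervals from the Myb reads (vertical lines) and the median of all Myb peaks (dashed line, 4.51). Most intervals include the dashed line, and the *Kat2b* peak at 12.9 stands above 32 of the other 38.

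Set side by side, the 9 peaks of *Ep300* and *Crebbp* had fold enrichments from 2.86 to 8.34 with a median of 4.66, and the 30 peaks of the other members from 2.73 to 12.9 with a median of 4.20. The exact binomial interval of the median was 2.99 to 7.90 for the pair and 3.92 to 4.51 for the others, so the intervals overlapped. Over all Myb peaks the median was 4.51. The upper quartile of all peaks, 5.95, was reached by 4 of the 9 peaks of the pair (44.4%) and by 7 of the 30 others (23.3%). The median summit rested on 24 reads at the pair and on 17 at the others, with 18 over all peaks. Peaks per 100 kb were 3.22 (1.47 to 6.11) at the pair and 4.14 (2.79 to 5.91) at the others. No test was made between the sets, because peaks of 1 library are not replicates of either.

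Neighboring genes took part of the peaks in both sets. Of the 39 summits, 16 lay within 3 kb of an own start site, 10 within 3 kb of a start site of another coding gene alone, and 13 at neither. For 15 of the 39 the nearest coding start site was that of another gene. Without the 10 peaks at promoters of neighbors alone, the pair kept 6 peaks with a median fold enrichment of 5.70 and the others 23 with a median of 4.19. Those 23 still held 2 own-promoter peaks nearer to another coding gene, at *Kat2a* (3.52-fold, *Hspb9*) and *Kat5* (2.82-fold, *Rnaseh2c*). The 3 peaks of the pair that lay at no coding promoter had 3.84-fold, 7.12-fold and 7.26-fold enrichment, and the 10 of the others ranged from 3.23 to 12.9. In 4 of the 9 genes the strongest peak by the rule was at the promoter of a neighbor, and *Crebbp* was one of them. At *Kat2b*, *Crebbp* and *Kat6b* the strongest peak among the remaining ones was intronic and more than 3 kb from an own start site. At *Kat5* it was also intronic, in intron 1, but at the promoter.

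The base composition under the summits differed with their position. Within 250 bp of the summit, the 16 own-promoter peaks had a median of 58.7% G and C and a median ratio of observed to expected CpG of 0.654. The 10 peaks at promoters of neighbors had 59.5% and 0.763. The 13 peaks at neither had 42.9% and 0.146, and none of these had a CpG ratio above 0.327. The median over all Myb peaks was 48.1% and 0.313. *Ep300* had the promoter peak with the second highest G and C content, 71.5%, after a *Kat6a* peak with 79.6%. At *Crebbp* the promoter peaks had 69.7% and 38.9% G and C, with CpG ratios of 0.873 and 0.634.

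**Figure D4:**
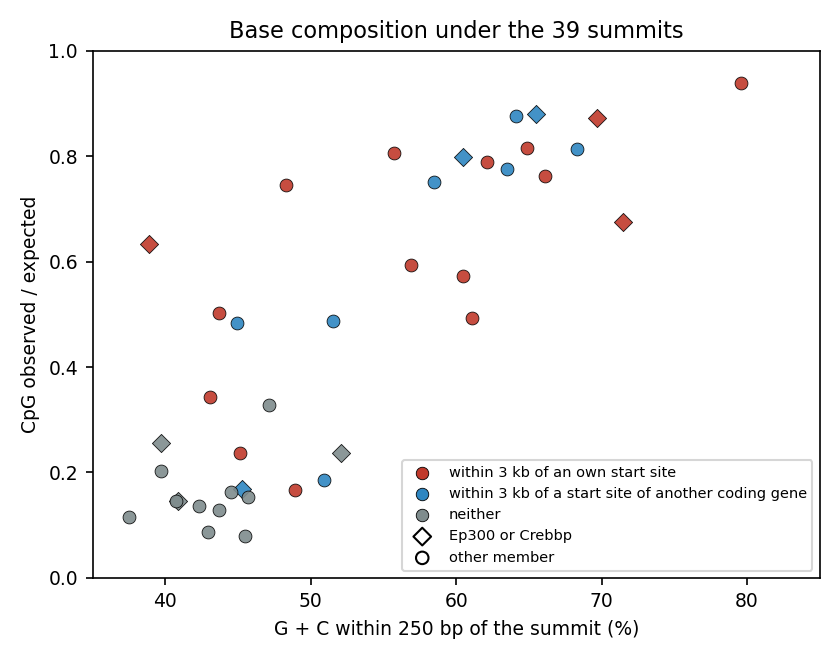
G and C content (percent) against the ratio of observed to expected CpG, both within 250 bp of the summit, for the 39 peaks, with color for position and diamonds for *Ep300* and *Crebbp*. The gray points, at no coding promoter, lie at or below a CpG ratio of 0.327, and red and blue points reach 0.938 and 0.880.

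Myb hexamers were counted against all peaks. They lay within 50 bp of 1 of 9 summits at *Ep300* and *Crebbp* and of 2 of 30 at the other members, in all 7.69% (exact binomial interval, 1.62% to 20.9%). Over all Myb peaks the share was 16.7%, which lies inside that interval, so a difference was not detectable with 39 peaks. The flanks of the 39 peaks, 500 bp on either side, held a hexamer in 17.9% of windows, and those of all peaks in 10.5%. Within 100 bp, 7 of the 39 summits (17.9%) had a hexamer, against 30.6% of all peaks. The nearest hexamer lay 500 bp from the summit of the *Ep300* promoter peak and 68 bp from that of the *Kat7* promoter peak. None was found within 650 bp of the strongest *Kat2b* summit. Of the peaks with hexamers, only that of *Crebbp* had a fold enrichment above 5.95.

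Motifs of other factors were also present at few of the 39 summits. GATA, RUNX, SP/KLF and NFY motifs were each present at 5 summits (12.8%, interval 4.30% to 27.4%). Over all Myb peaks the shares were 8.67% for GATA, 9.79% for RUNX, 7.15% for SP/KLF and 11.1% for NFY, all inside the interval. The ETS motif was present at 1 summit, the *Sgo1* promoter beyond *Kat2b*, against 3.87% of all peaks. C/EBP motifs were at 2 summits and the E-box CAGCTG at 3. The cAMP response element TGACGTCA, the site of the factor after which CBP is named, was found at 0 of 39 summits, with an exact binomial upper bound of 9.03%, and at 0.244% of all peaks. At the 9 summits of *Ep300* and *Crebbp*, besides the Myb hexamer, an NFY match and a RUNX match were found. The absence of these letters from a window says nothing of the factor.

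The genes that act with the acetyltransferases were examined in the same way. In 6 lists with 99 genes together, 88 (88.9%) had a Myb summit by the rule and 81 (81.8%) had one at a promoter. Over all protein-coding genes the shares were 58.6% and 39.9%. The lists were chosen with earlier results of these data known, so the shares only describe the listed genes, and the difference was not tested. Among subunits of the MYST complexes 34 of 35 had a promoter peak, led by *Brd8* (19.7-fold) and *Phf20* (11.6-fold). Among SAGA and ATAC subunits it was 16 of 21, led by *Atxn7* (17.1-fold) and *Taf9* (13.5-fold). Both lists held promoter peaks stronger than any at the acetyltransferases themselves, where 7.90 was the highest value. They also have more bound promoters, and a longer list tends to hold a higher maximum. The median of the strongest promoter peak was 5.96 for MYST complex subunits and 6.50 for SAGA and ATAC subunits. Over all protein-coding genes with a promoter peak it was 5.25. Of another 11 acetyltransferases and coactivators, 8 had a promoter peak, the strongest at *Naa60* (6.75-fold) and *Ncoa2* (5.98-fold).

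The enzymes that remove acetyl groups, the proteins that read them and the partners of CBP and p300 were counted next. Of 18 histone deacetylases, 13 had a promoter peak, the strongest at *Hdac10* (9.13-fold) and *Sirt3* (7.31-fold). Of 6 genes of bromodomain proteins, which read acetylated lysines, 5 had one, led by *Brd2* (10.8-fold) and *Brd3* (6.23-fold). Of 8 partners of CBP and p300, 5 had one, the strongest at *Myb* itself (14.6-fold) and at *Cited2* (6.80-fold). As a check of the cell label, the blood progenitor genes *Kit*, *Cd34*, *Gata2*, *Runx1* and *Flt3* each had a summit by the rule, although *Cd34* had none at a promoter. By the same rule 58.6% of protein-coding genes had one. None of *Alb*, *Myh6*, *Ins2*, *Neurod1*, *Pou5f1* and *Krt14*, genes of other tissues, had one. The check is weak, because both lists were chosen with earlier results of these data known. Peaks do not measure expression, so these counts only describe binding.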

How the data were processed

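Myb and IgG ChIP-Seq were performed on Lin- bone marrow cells of WT mice, with 1 library each, grouped by sample title. Per the submitters' processing notes and the study's methods, the authors used Cutadapt 1.15 for trimming, BWA 0.7.13 for alignment to mm10, Picard for duplicates and MACS2 2.1.1.20160309 for narrow peaks against IgG, and kept calls shared by pseudo-replicates of the library. The deposited fold enrichment is a ratio of scaled Myb pileup to IgG background at the summit, with 1 added to each. The background is the value used in peak calling, at least the genome-wide level of 1.46 reads. Myb reads are given before scaling, so reads divided by background do not equal the fold. Further deposited columns give the −log10 of the p-value and of the q-value. The score, a deposited column of whole numbers that follows the −log10 p-value, was not used.

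Summits were assigned to GENCODE vM21 on GRCm38, and coordinates are 1-based. A window of 3 kb around a start site was taken as promoter, as in the study. Myb reads and IgG background at each summit were recovered from fold enrichment and p-value, using the MACS2 formula. With the Myb pileup scaled by 0.769, the reads came out whole, within 0.001, in 100% of rows, and in 0.500% after the fold was moved slightly. The recovery and the assignment were tested on simulated data. Depth at the 39 summits was 10 to 66 reads. Intervals are exact 95% Poisson or binomial intervals, with the background held fixed for folds. Intron numbers follow the transcript with the longest coding sequence. Repeats are those masked in the RefSeq genome. All members and their peaks are described, with the nearest coding gene where it is another gene, and the 2 strongest promoters of each list. *Ep300* and *Crebbp* were compared with the others without a test. 1 gene of a marker list is not reported here. Members, lists and motifs were chosen with earlier results of these data known. Python 3.11.15 and scipy 1.17.1 were used.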

Additional observations from a re-analysis of the deposited data

How the results depend on the processing

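When only peaks with −log10 q of 5 or more were used, the 9 genes had 14, of which 5 lay at *Ep300* and *Crebbp*. Of the 9 genes, 3 then had a promoter peak, and no share over all protein-coding genes is given at this filter. The median fold enrichment was 7.26 at the pair and 6.81 at the other 7 genes. That filter by construction leaves stronger peaks. Summits in the gene or within 3 kb numbered 25, of which 5 at the pair, and within 50 kb there were 60, which follows from the size of the window. Assignment by nearest coding start site gave 25 peaks. The looser motif AACNG was at 51.3% of the member summits, since it is shorter. The other alternatives left these results within their interval or within 1.5 times their count. They were −log10 q of 2 or more, a q-value of at most 0.05, any base of the peak and narrower promoter windows. The 5′ end of the gene alone, CAACNG and TAACNG, and windows of 25 and 100 bp were also used. With CAACNG and TAACNG, which include the hexamers searched, the share of member summits rose from 7.69% to 20.5%, so it depended on the letters. The value lies inside the wide interval of 1.62% to 20.9%, but that interval covers counting error and not the choice of letters. The share over all peaks is not given for CAACNG and TAACNG, nor for AACNG. For single genes, 46 of 63 peak counts and 55 of 59 highest fold enrichments stayed within their interval or within 1.5 times their value. Of the rest, 2 and 2 were higher and 15 and 2 lower. No paired analysis was possible because there was 1 library of each kind. Depth limits the single peaks, of which 18 of 39 rested on fewer than 20 reads.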
